A study of Homo sapiens with 8 samples.

Results

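The data below describe γH2AX regions on chromosome 3 of A2780 cells, a human ovarian carcinoma line, between 70 and 98 Mb of hg19. This interval runs from bands 3p13 and 3p12 of the short arm across the centromere into the proximal long arm. Its members are all called regions whose midpoint lies from 70 to below 98 Mb. They number 301 of 17789 regions in the Pt-ttpy list, 336 of 25671 in the cisplatin list and 246 of 9709 in the untreated list, on chromosomes 1 to 22 and X. In all, 883 of 53169 regions were members, or 1.66%. The interval was chosen by the called regions themselves, for their density there, so the counts are a description and were not tested.

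Chromatin was immunoprecipitated with an antibody against γH2AX in cells under Pt-ttpy, in cells under cisplatin, each drug at its own IC80 dose during 96 hours, and in untreated cells. Each of these conditions had 2 samples, and 2 further samples of input chromatin from untreated cells were not analysed here. The labels tie both samples of a condition to 1 peak list, so no value has a replicate and no p-value was computed. Cisplatin crosslinks DNA, and Pt-ttpy is a platinum complex that binds G-quadruplexes, folded structures of guanine-rich DNA. Read totals are not in the lists, so the depth behind each value is unknown.

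γH2AX is histone H2AX phosphorylated on its tail by kinases of the DNA damage response, and it marks chromatin around DNA breaks. Centromeres of human chromosomes consist of long arrays of alpha satellite repeats, which hg19 replaces by a gap. Band 3p12 is known for the axon guidance receptors ROBO1 and ROBO2 and for a stretch of duplicated sequence beside them. RefSeq lists 35 genes between CNTN3, a neuronal adhesion protein, and ROBO2, in the order of build GRCh38. Of these, 23 are pseudogenes, 7 long noncoding RNAs and 3 miRNAs. The protein-coding genes among them are FRG2C and ZNF717, a zinc finger protein. FRG2C and its neighbour DUX4L26 belong to families that are also known from the D4Z4 repeat ends of chromosomes 4 and 10, and the OR7E pseudogenes listed there are copies of olfactory receptors. Between EPHA3, an ephrin receptor, and PROS1, the gene of the anticoagulant protein S, which stand on either side of the centromere, RefSeq lists 12 genes, of which 11 are pseudogenes and 0 are protein-coding. These positions belong to another build than the regions, so the genes were not laid over them.

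The regions of the interval were concentrated in 3 short blocks. Windows of 100 kb were called dense where at least 1 list held 10 or more regions, and 7 windows met this. They formed a block from 75.6 to 76 Mb, called the 3p12 cluster here, a block from 90.3 to 90.5 Mb on the short-arm side of the centromere, and the window from 93.5 to 93.6 Mb on the long-arm side. The window just above the threshold was the last of these, with 8 Pt-ttpy, 11 cisplatin and 5 untreated regions. The windows just below it were that from 90.5 to 90.6 Mb, with 6, 6 and 3, and that from 77.8 to 77.9 Mb, with 1, 5 and 1.

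The 3p12 cluster held 177 Pt-ttpy, 185 cisplatin and 174 untreated regions. The short-arm flank of the centromere held 99 Pt-ttpy, 104 cisplatin and 62 untreated regions. The rest of the interval, which is most of its 28 Mb, held 17 Pt-ttpy, 36 cisplatin and 5 untreated regions. The 3 blocks together held 284 of 301 Pt-ttpy, 300 of 336 cisplatin and 241 of 246 untreated members. Counted as deposited, without merging, the lists were closest in number in the 3p12 cluster. The ratio of Pt-ttpy to untreated regions was 1.02 in the cluster and 1.60 in the short-arm flank, where it was 1.83 over the whole lists. The ratio of cisplatin to untreated regions was 1.06 in the cluster and 1.68 in the flank, against 2.64 over the whole lists. In sum over the interval these ratios were 1.22 and 1.37. The interval took 1.69% of the Pt-ttpy, 1.31% of the cisplatin and 2.53% of the untreated list. Untreated regions carry running peak numbers in their names, which reach 17622, and 8844 numbers are kept on chromosomes 1 to 22 and X. In the interval, 24.1% of the numbers from the first to the last kept member are missing. How much of the contrast with the whole lists comes from missing numbers was not tested. With regions of a list within 1 kb merged, the members numbered 91, 109 and 87.

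**Figure D1:**
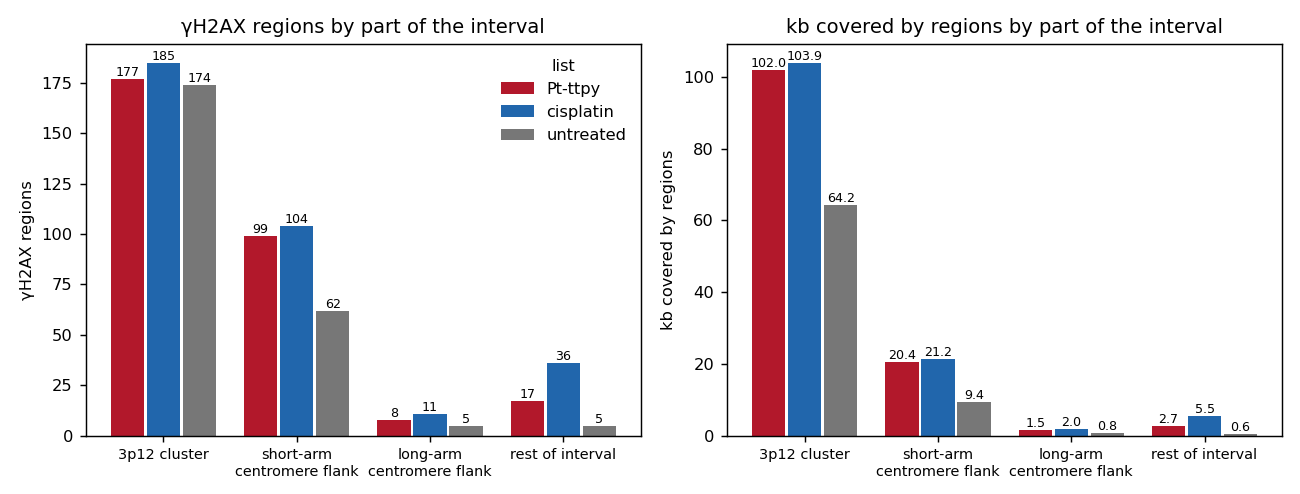
Number of called γH2AX regions (left) and length they cover in kb (right) in each part of the interval, with 1 bar per peak list (Pt-ttpy, cisplatin, untreated) and no replicates. The 3p12 cluster has similar counts in the lists (177, 185 and 174), while its covered length is 102.0 and 103.9 kb in the treated lists and 64.2 kb in the untreated list.

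Similar counts in the 3p12 cluster went with unequal covered length. The regions covered 102.0 kb (25.5% of the block) in the Pt-ttpy list, 103.9 kb (26.0%) in the cisplatin list and 64.2 kb (16.1%) in the untreated list. The median width was 258 bp for Pt-ttpy, 215 bp for cisplatin and 212 bp for untreated regions, with upper quartiles of 643, 654 and 434.5 bp. Regions wider than 1000 bp made up 24 Pt-ttpy (13.6%), 29 cisplatin (15.7%) and 12 untreated (6.90%) members of the cluster. Over the whole lists these shares were 5.92%, 4.39% and 4.65%. All members wider than 1000 bp lay in this cluster. With regions within 1 kb merged, the cluster came to 33 Pt-ttpy, 34 cisplatin and 40 untreated stretches, so that the ratios to untreated were 0.825 and 0.850. Equal numbers of top regions from each list left 160, 152 and 174, with ratios of 0.920 and 0.874, so neither direction of the small difference in counts holds across settings.

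The cluster had a dense core and a sparse outer part with a sharp edge between them. From 75.68 to 75.8 Mb, the 20 kb bins were covered to between 53.2% and 77.3% in the Pt-ttpy, between 54.7% and 79.2% in the cisplatin and between 25.4% and 59.3% in the untreated list. From 75.8 to 75.92 Mb, the same bins were covered to between 3.13% and 14.6%, between 4.26% and 15.5% and between 0.510% and 6.99%. A stretch without any region followed, and it had the same limits in all lists to within 1 kb. It spanned 75913837 to 75983589 in the Pt-ttpy, 75914537 to 75983434 in the cisplatin and 75913839 to 75983610 in the untreated list, a length of 69.8, 68.9 and 69.8 kb. The last bin, from 75.98 to 76 Mb, was covered to 30.9% in the Pt-ttpy, 29.0% in the cisplatin and 16.0% in the untreated list. The last region there ended at 75998679, 75998700 and 75998686.

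**Figure D2:**
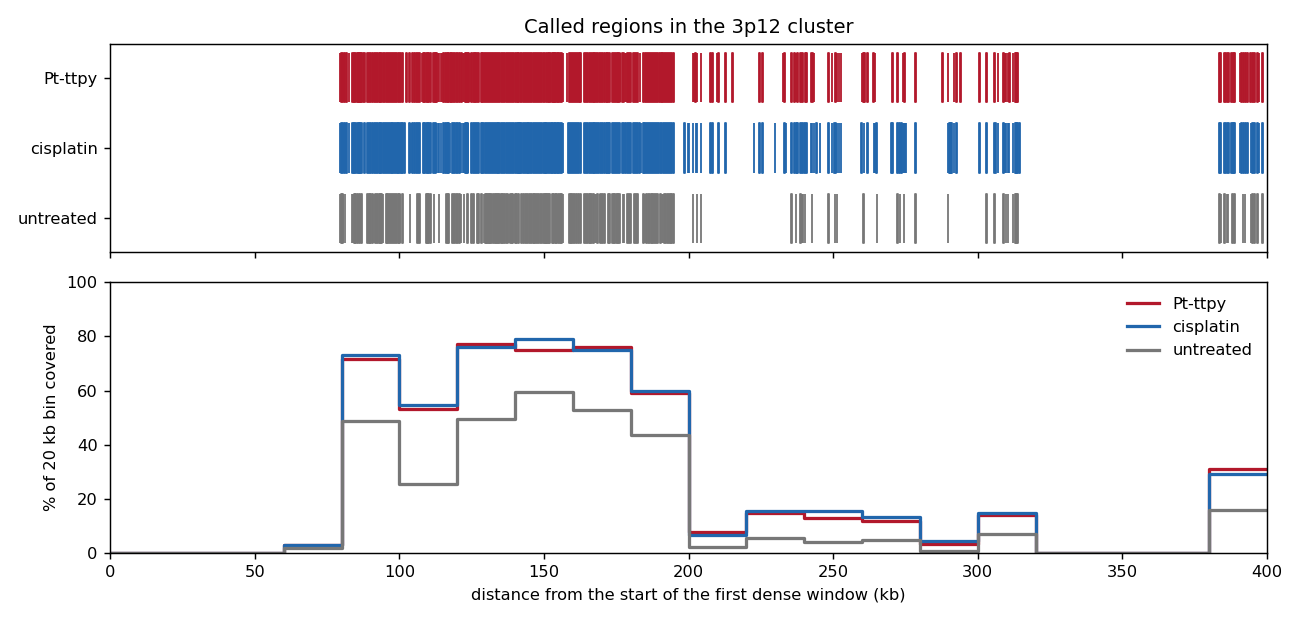
Called regions of the 3p12 cluster in each list (upper panel, 1 box per region) and the share of each 20 kb bin that they cover in percent (lower panel), against the distance in kb from the start of the first dense window. The treated lists nearly coincide and lie above the untreated list in every bin with regions, and all 3 lists share the steep edge near 200 kb and the empty stretch after 300 kb.

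The counts compared differently in these parts. Up to 75.8 Mb there were 102 Pt-ttpy, 99 cisplatin and 130 untreated regions, so the untreated list had the most. From 75.8 Mb on there were 75 Pt-ttpy, 86 cisplatin and 44 untreated regions, so it had the fewest. The covered length was shorter in the untreated list in both, with 83.0, 84.2 and 56.2 kb in the core and 19.0, 19.7 and 7.97 kb beyond it. The higher untreated count in the core went with division into pieces. Across the cluster, 102 joined stretches were called in all 3 lists, and they held 114 Pt-ttpy, 111 cisplatin and 171 untreated regions. Of these stretches 36 held more than 1 untreated region, with up to 10 in a single stretch, against 10 stretches divided in the Pt-ttpy and 8 in the cisplatin list.

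The 5 widest members measured 3287 to 6282 bp for Pt-ttpy, 3219 to 4967 bp for cisplatin and 1377 to 3443 bp for untreated cells, and the widest of all shows the division. For Pt-ttpy it ran from 75728646 to 75734927, a width of 6282 bp, with a fold of 13.1. Folds are the authors' values for each region, over 1 constant background per list. The cisplatin list covered the same stretch by 3 regions, the widest from 75729472 to 75734000 with 4529 bp and a fold of 11.8. The untreated list covered it by 10 regions of 90 to 950 bp. The widest cisplatin member ran from 75784732 to 75789698, a width of 4967 bp. It shared its stretch with 1 Pt-ttpy region of 4733 bp and with 5 untreated regions. The widest untreated member ran from 75695846 to 75699288, a width of 3443 bp. It lay within 1 Pt-ttpy region of 3956 bp and on cisplatin regions of 3061 and 1911 bp.

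Part of the division in the untreated list is inside single peak numbers. In the cluster its 174 regions carried 154 numbers, and 38 regions were pieces of a number that appears more than once. The 20 gaps between such pieces were 102 to 218 bp long, and 16 of them were fully covered by Pt-ttpy and 17 by cisplatin regions. Joining the pieces left 154 untreated regions, and the ratios to them were 1.15 for Pt-ttpy and 1.20 for cisplatin. The treated lists had no such pieces. The untreated covered length leaves out these gaps, which total 2.66 kb in the cluster. Whether untreated regions were shortened elsewhere is not given.

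The strongest region of the cluster was the same in all 3 lists. Its Pt-ttpy call, 75718002 to 75719260, had a fold of 25.5, set beside a list median of 3.91. The cisplatin call, 75718007 to 75719194, had a fold of 33.1 beside a list median of 3.64. The untreated call, 75718012 to 75719191, had a fold of 49.3 beside a list median of 5.71. These folds have different backgrounds and give no order between lists. Within its own list the region stood at percentile 99.7 for Pt-ttpy, 99.8 for cisplatin and 99.0 for untreated cells. Its left edges lay within 10 bp of each other. Of the 10 strongest regions of the cluster by -log10 q, 8 of Pt-ttpy overlapped the 10 of cisplatin and 6 overlapped the 10 of untreated cells. In the other direction, 8 of the 10 of untreated cells overlapped those of Pt-ttpy and 8 those of cisplatin. Regions tied at a -log10 q of 29.1 competed for the last places among the 10 of untreated cells. This set therefore depends on how ties were broken, and it counts adjoining regions with equal values separately.

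The regions of the cluster stood differently in their own lists. The fold exceeded the median of its list in 155 of 177 Pt-ttpy regions (87.6%), 163 of 185 cisplatin regions (88.1%) and 87 of 174 untreated regions (50.0%). Over the whole lists these shares were 49.6%, 46.9% and 47.5%. The median percentile was 75.3 for Pt-ttpy, 81.5 for cisplatin and 52.3 for untreated regions. A rank depends on the other regions that a list holds, and the untreated list is the shortest. These ranks therefore give no order of signal between lists. Most members would have passed a stricter call. A -log10 q of at least 5 was reached by 163 Pt-ttpy (92.1%), 163 cisplatin (88.1%) and 152 untreated (87.4%) regions, against 57.6%, 46.9% and 73.9% of the whole lists.

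The centromere flank on the short arm was built of narrower regions than the 3p12 cluster in each list. The median width was 165 bp for Pt-ttpy, 155.5 bp for cisplatin and 123.5 bp for untreated regions. The widest was 771, 637 and 473 bp. The regions covered 20.4, 21.2 and 9.38 kb, or 10.2%, 10.6% and 4.69% of the block. The start of a region was followed by the next after a median of 1014.5 bp for Pt-ttpy, 918 bp for cisplatin and 1431 bp for untreated regions. With regions within 1 kb merged the flank held 41, 42 and 40 stretches, so that the ratios to untreated came to 1.02 and 1.05.

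Among the 20 kb bins of the flank, the regions were densest from 90.44 to 90.48 Mb. From 90.3 to 90.44 Mb, the 20 kb bins held 1 to 11 Pt-ttpy, 1 to 11 cisplatin and 0 to 7 untreated regions. From 90.44 to 90.46 Mb there were 20, 22 and 16, and from 90.46 to 90.48 Mb there were 24, 21 and 14. The last full bin, from 90.48 to 90.5 Mb, held fewer than these, with 13, 15 and 9. The next 100 kb window held 6, 6 and 3, all of which end by 90504803. Only its first part lies before the gap, so its count cannot be set beside a full bin. The strongest region lay between 90.44 and 90.46 Mb in each list. It ran from 90457247 to 90458017 in the Pt-ttpy list with a fold of 18.9, from 90457524 to 90458070 in the cisplatin list with a fold of 21.6, and from 90457559 to 90458031 in the untreated list with a fold of 28.9. Of the 10 strongest flank regions by -log10 q, 9 of Pt-ttpy overlapped the 10 of cisplatin, and 8 overlapped the 10 of untreated cells. Untreated regions stood higher within their list here than in the 3p12 cluster, with 39 of 62 (62.9%) above the median fold of the list. For the treated lists this was 84 of 99 (84.8%) for Pt-ttpy and 91 of 104 (87.5%) for cisplatin. The median percentile of a region within its list was 75.3 for Pt-ttpy, 82.2 for cisplatin and 63.0 for untreated cells.

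**Figure D3:**
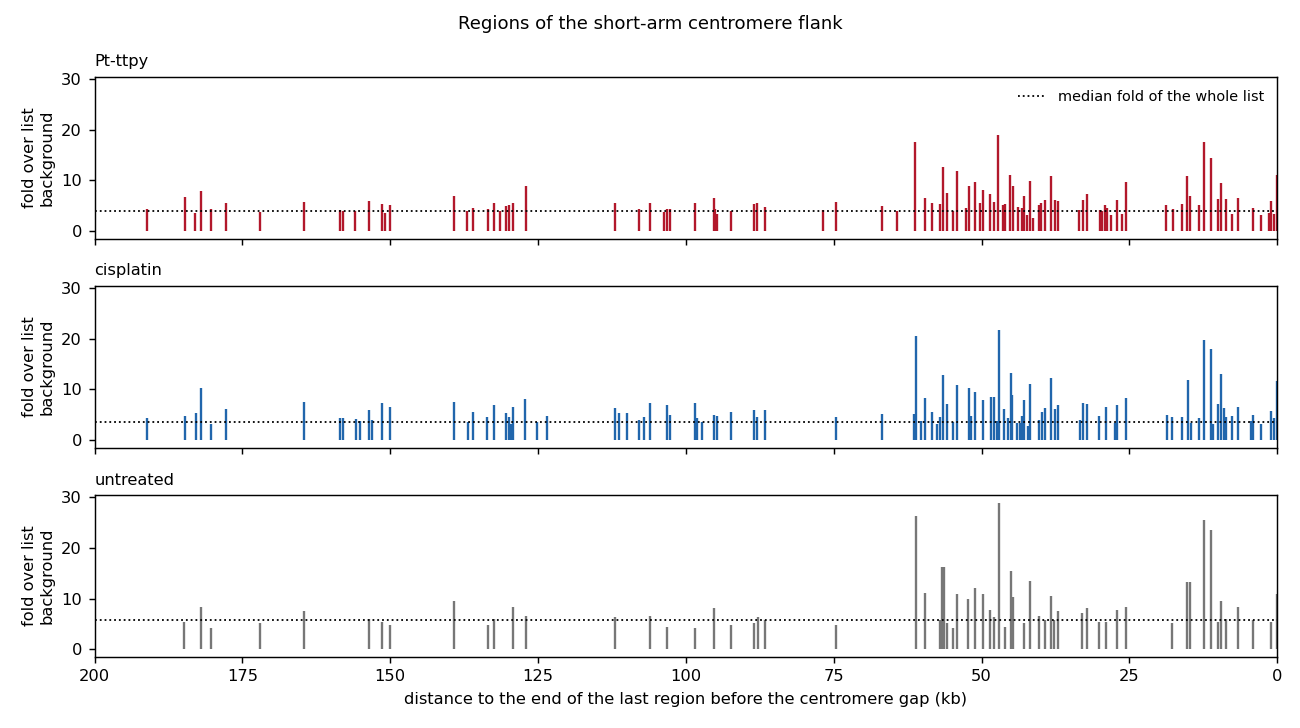
Fold over the constant background of each list for the regions of the short-arm centromere flank (1 line per region, 1 panel per list) against the distance in kb to the end of the last region before the centromere gap. The tallest lines stand at the same distances in all 3 panels, and their regions reach folds of 18.9 in the Pt-ttpy, 21.6 in the cisplatin and 28.9 in the untreated list, on backgrounds that differ between lists.

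The regions ran up to the edge of the centromere gap on both sides. The last on the short arm ended at 90504803 in the Pt-ttpy, at 90504803 in the cisplatin and at 90504800 in the untreated list. Its fold of 11.0, 11.6 and 10.8 placed it at percentiles 95.8, 96.8 and 86.6 of the lists. The next region began 3.00 Mb further on in each list, at 93505024 in the Pt-ttpy, 93504989 in the cisplatin and 93505807 in the untreated list. The treated lists started closer to the gap than the untreated list on this side, and the folds were 4.17, 3.81 and 4.21. The long-arm flank was small, with 8 Pt-ttpy, 11 cisplatin and 5 untreated regions, the last of which ended at 93515204, 93515203 and 93512986. Its strongest region was again common to the lists, with folds of 11.4 for Pt-ttpy at 93511409 to 93511767, 12.5 for cisplatin at 93511412 to 93511759 and 13.5 for untreated cells at 93511420 to 93511756.

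Nearly all untreated members lay on treated regions. Of the 246 untreated members, 243 (98.8%) shared at least 1 bp with a Pt-ttpy region and 245 (99.6%) with a cisplatin region, where the whole untreated list gave 95.1% and 96.1%. No untreated member lay outside both treated lists, against 1.78% of the whole list. The 3 untreated members off the Pt-ttpy list were in the 3p12 cluster, and the 1 off the cisplatin list was in the short-arm flank. When at least 50% of both regions had to be shared, these shares came to 51.2% and 48.4%.

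Treated members lay on untreated regions more often than treated regions in general. Of the Pt-ttpy members 182 of 301 (60.5%) lay on an untreated region, against 39.5% of the whole list. Of the cisplatin members it was 180 of 336 (53.6%), against 27.3%. Since both treated lists are set against the same untreated list, these shares are not independent of each other. The interval was chosen for its density of regions, those of the untreated list included, which in itself favours overlap. Peak numbers missing from the untreated list also bear on the whole-list shares, to an extent that was not tested. The names of both treated lists also carry a tag for untreated cells, and the control used in calling is not given. By block the Pt-ttpy share was 62.7% in the 3p12 cluster and 61.6% in the short-arm flank, and the cisplatin share was 60.0% and 56.7%. Outside the blocks it was 5 of 17 for Pt-ttpy and 5 of 36 for cisplatin. Treated members off the untreated list were weaker and narrower at the median. Their median fold was 4.30 for Pt-ttpy, against 6.24 for those on it, and 4.15 for cisplatin, against 6.58. Their median width was 141 bp for Pt-ttpy, against 286.5 bp, and 130 bp for cisplatin, against 292 bp.

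The treated lists overlapped each other more than they did the untreated list, which covers less of the interval and lacks peak numbers. Of the Pt-ttpy members 268 of 301 (89.0%) lay on a cisplatin region, where the whole list gave 69.9%. Of the cisplatin members 264 of 336 (78.6%) lay on a Pt-ttpy region, where the whole list gave 47.8%. With equal numbers of top regions, 84.7% of Pt-ttpy members lay on cisplatin and 68.2% on untreated regions. For cisplatin members it was 85.3% on Pt-ttpy and 67.1% on untreated regions. Missing numbers could match up to 52 of 119 Pt-ttpy and 63 of 156 cisplatin members off the untreated list. How much of the difference between the overlaps comes from these limits was not tested. In length, 88.6% of the bases under Pt-ttpy members and 84.6% of those under cisplatin members were common to both. The 32 Pt-ttpy members (10.6%) and 69 cisplatin members (20.5%) on neither other list compare with 29.3% and 51.4% of the whole lists. They had median folds of 3.78 and 3.64 and median widths of 114 and 113 bp, close to the narrowest treated width of 101 bp.

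**Figure D4:**
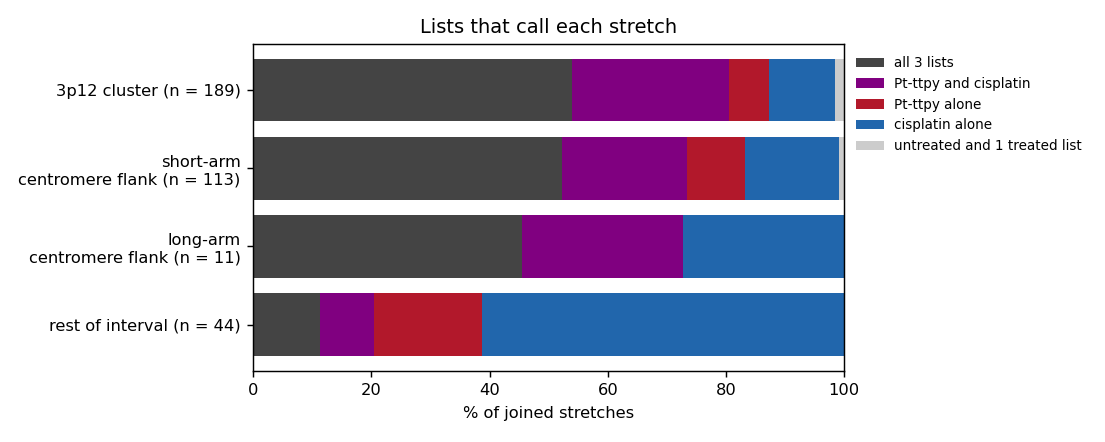
Share, in percent, of the stretches formed by joining overlapping regions of the 3 lists that were called in all 3 lists, in both treated lists, in 1 treated list alone or in the untreated and 1 treated list, for each part of the interval (n = number of stretches). Stretches called in all 3 lists make up 54.0% of the 3p12 cluster and 52.2% of the short-arm flank, but 11.4% of the rest of the interval, where cisplatin alone takes 61.4%. The rest of the interval includes the regions between the short-arm flank and the gap.

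Joined across the lists, the members formed 357 stretches. Of these 171 were called in all 3 lists, 81 in both treated lists, 32 in Pt-ttpy alone, 69 in cisplatin alone, 3 in the untreated and cisplatin lists only and 1 in the untreated and Pt-ttpy lists only. The 3p12 cluster held 102 of the 171 and 50 of the 81. The short-arm flank held 59 and 24.

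Where each list had exactly 1 region in a stretch, its position was close and its width differed. There were 122 such stretches. The summits of Pt-ttpy and untreated regions lay a median of 16 bp apart, over the 114 pairs whose untreated summit lies inside its own region, and 94 of these were within 50 bp. For cisplatin and untreated regions the median was 18 bp, also with 94 of 114 within 50 bp. Between Pt-ttpy and cisplatin it was 15 bp, with 99 of 122 within 50 bp. The Pt-ttpy region was wider than the untreated one in 112 of 122 stretches and the cisplatin region in 112 of 122, with median differences of 47 and 42.5 bp. Between the treated lists there was no such tilt: the Pt-ttpy region was wider in 58 and narrower in 64, with a median difference of -2 bp. In the 3p12 cluster the median widths over 60 such stretches were 275.5 bp for Pt-ttpy, 284 bp for cisplatin and 149.5 bp for untreated regions. In the short-arm flank, over 52 stretches, they were 177, 164 and 123.5 bp. The lowest width of a treated region is 101 bp, whereas 24 of the 246 untreated members are narrower than 100 bp, down to 14 bp. In the stretches left out of the summit comparison, the untreated summit as deposited lies outside its own region. Some untreated peak numbers also appear in pieces, which the treated lists lack. Untreated and treated widths may therefore not be alike in kind, and how much of the difference this makes was not tested.

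**Figure D5:**
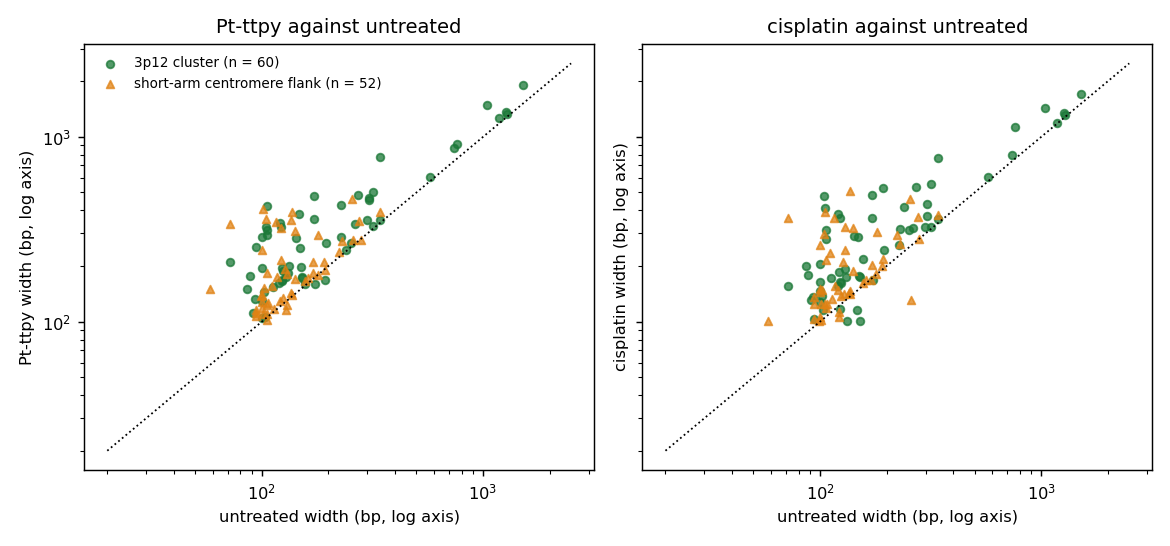
Width of the Pt-ttpy (left) and cisplatin (right) region against the width of the untreated region, in bp on log axes, for stretches with exactly 1 region in each list. Points stand for stretches of the 3p12 cluster (n = 60) and the short-arm flank (n = 52), the dotted line marks equal width, and most points lie above it: Pt-ttpy regions are wider in 58 of 60 and 46 of 52, cisplatin regions in 55 of 60 and 48 of 52.

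Outside the blocks the interval was nearly empty, and treated regions there were mostly weak. A -log10 q of at least 5 was reached by 4 of 17 Pt-ttpy, 12 of 36 cisplatin and 4 of 5 untreated regions. Over the whole lists these shares were 57.6%, 46.9% and 73.9%. In the 14.3 Mb between the 3p12 cluster and the short-arm flank there were 6 Pt-ttpy, 18 cisplatin and 1 untreated region, or 0.420, 1.26 and 0.0699 per Mb. Only 2 regions of each treated list there overlapped the other. The median fold was 3.01 for Pt-ttpy and 3.12 for cisplatin, and a -log10 q of at least 5 was reached by 0 of the 6 and 3 of the 18. Beyond the long-arm flank, up to 98 Mb, there were 1 Pt-ttpy, 7 cisplatin and 0 untreated regions, with no overlap between the treated lists. With equal numbers of top regions from each list, the part of the interval outside the blocks kept 4 Pt-ttpy, 8 cisplatin and 5 untreated regions. The part outside the blocks includes 6 Pt-ttpy, 6 cisplatin and 3 untreated regions between the short-arm flank and the gap. Of these, 3, 5 and 3 reached a -log10 q of at least 5.

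A few regions outside the blocks stand apart. At 73.16 Mb a single region was called in all 3 lists, from 73159907 to 73160115 for Pt-ttpy, from 73159910 to 73160109 for cisplatin and from 73159912 to 73160122 for untreated cells. Its folds of 7.92, 9.69 and 11.7 placed it at percentiles 90.6, 95.2 and 88.7 of the lists, although it is the only region within more than 2 Mb. It was chosen after its values were seen, as was the next place. From 77829975 to 77835665 the cisplatin list had 5 regions with folds between 2.94 and 3.98, the Pt-ttpy list had 1 with a fold of 3.01 and the untreated list had 1 piece of 30 bp. Among the regions off the untreated list, the strongest of cisplatin ran from 86909454 to 86909719 with a fold of 5.19, and Pt-ttpy had a partner from 86909463 to 86909715 with a fold of 3.39. The strongest of Pt-ttpy were 75272467 to 75272748 and 77187388 to 77187496, both with a fold of 3.65, percentile 40.1 of the list, followed by 75272982 to 75273120 with a fold of 3.52, the widest of 3 regions tied at that value. The next of cisplatin were 94157649 to 94157780 on the long arm, with a fold of 4.85, and 90504066 to 90504292 beside the gap, with a fold of 4.33, which 95799524 to 95799624 shares.

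The untreated list lacks peak numbers in the interval, which limits what its absences show. Over the whole list its numbers run up to 17622, and 8844 are kept on chromosomes 1 to 22 and X. Its 224 kept numbers there span a run from which 71 are missing. A further 6 numbers are missing before the first member and 50 after the last, up to the next kept region at 132331244, and how many of these belong to the interval is unknown. The absence of untreated regions beyond 93512986 is therefore uncertain. Of the missing ones, 32 lie between kept numbers of the 3p12 cluster, 15 between those of the short-arm flank and 17 between the kept regions that end at 77831576 and begin at 90319955. In that last stretch the lists hold 5 Pt-ttpy and 14 cisplatin regions, fewer than the missing untreated numbers. If each missing number stood for a region at a treated one, up to 52 of the 119 Pt-ttpy members and up to 63 of the 156 cisplatin members off the untreated list could be matched. In the 3p12 cluster this is up to 26 of 66 for Pt-ttpy and up to 23 of 74 for cisplatin. In the short-arm flank it is up to 15 of 38 for Pt-ttpy and up to 12 of 45 for cisplatin.

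The limits of the interval did not cut through a dense part. The nearest region below 70 Mb was at 55274751 in the Pt-ttpy list (fold 5.85), at 63823669 in the cisplatin list (fold 2.94) and at 55274750 in the untreated list (fold 5.41), and the first inside was that at 73.16 Mb. The last inside was at 95209402 in the Pt-ttpy (fold 3.52), at 97873136 in the cisplatin (fold 2.94) and at 93512819 in the untreated list (fold 9.92). The first above 98 Mb was at 98130678 for Pt-ttpy (fold 4.56), at 98130673 for cisplatin (fold 4.50) and at 132331244 for untreated cells (fold 5.11). The interval held 75.8% of the 397 Pt-ttpy regions of chromosome 3, 59.6% of the 564 cisplatin regions and 88.5% of the 278 untreated regions. The remaining regions of the chromosome had median widths of 127.5, 132 and 125.5 bp.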

How the data were processed

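The authors deposited 1 peak list per condition. Reads were aligned with BWA 0.7.5 to hg19 and peaks called with MACS2 2.1.0, per the submitters' processing notes. How replicates were handled, which control served and which settings were used is not given. Per the labels' protocols, chromatin was sonicated to 200 to 700 bp and sequenced in single reads of 50 bases. Per region the authors deposited a fold ratio over background, a -log10 p-value, a -log10 q-value and a score of 10 times the -log10 q. Within each deposited list every fold value went with 1 p-value, so a fold is relative to 1 constant background of its list and carries no control signal of its position. Copy number and repeated sequence were therefore not corrected, and their part in these counts was not tested. The lists have different backgrounds, and their folds were used only within a list.

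Regions on chromosomes 1 to 22 and X were assigned by midpoint, overlaps need at least 1 bp, and positions are 1-based. Dense windows separated by at most 1 other window were joined to blocks. The regions named were the strongest of each block, the widest of each list, those next to the gap and the strongest treated ones outside the blocks. The code was tested on simulated data. With 1 list per condition no test between conditions was possible. The interval and its comparisons were chosen with earlier results of these data known. Alternatives were a -log10 q of at least 5, merging within 1 kb, equal numbers of top regions, joined pieces, membership by any overlap, reciprocal overlap of 50%, extension by 1 kb and other windows. Regions of at least 100 bp only were added after seeing the data. Sequence under the regions and its features were not analysed here. Tables were made with pandas 2.3.3 and numpy 2.4.6 in Python 3.11.15, intervals with scipy 1.17.1 and figures with matplotlib 3.10.9.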

Additional observations from a re-analysis of the deposited data

How the results depend on the processing

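Of 70 alternative values for 16 results, 42 stayed within their limits: 1.5 times for counts, the exact 95% binomial interval for shares and the matching order-statistic interval for median widths, all of which cover counting error only. The other 28 follow here. Merging regions within 1 kb gave 91 Pt-ttpy, 109 cisplatin and 87 untreated regions in place of 301, 336 and 246, with median widths of 477, 370 and 211 bp in place of 195, 174 and 170.5 bp. It left 71.6% of cisplatin regions on Pt-ttpy regions, and 85.7% of Pt-ttpy and 72.5% of cisplatin regions in the blocks. A -log10 q of at least 5 gave 98.5% and 95.7% in the blocks and a median cisplatin width of 200 bp. A reciprocal overlap of 50% gave 70.8% for Pt-ttpy on cisplatin, 41.9% for Pt-ttpy on untreated, 63.4% for cisplatin on Pt-ttpy, 35.4% for cisplatin on untreated, 51.2% for untreated on Pt-ttpy and 48.4% for untreated on cisplatin. Extension by 1 kb gave 96.3%, 85.4%, 90.5%, 80.1% and 100% for the first 5 of these. Equal numbers of top regions gave 84.7%, 68.2%, 85.3% and 67.1% for the first 4, and 95.1% for untreated on cisplatin. Fewer or wider regions follow from the construction of merging and extension; for the other settings the cause was not tested. No paired analysis was possible because the lists carry no replicates and no result comes from a test. Depth is unknown, so an absent call does not show absent signal.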
